A study of Mus musculus with 8 samples.

Results

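Chromatin-modifying enzymes of 7 families were measured in a fast muscle of the mouse shin, the tibialis anterior, after a 24 h fast. The genes were chosen by symbol, with earlier results of these data known. They were lysine demethylases (Kdm), lysine methyltransferases (Kmt, Setd and Ezh), arginine methyltransferases (Prmt), lysine acetyltransferases (Kat), deacetylases (Hdac) and sirtuins (Sirt). Hdac4, Hdac5, Hdac7 and Hdac9, the class IIa deacetylases, were left out. The rule found 53 genes among the 14860 genes that had a row of the expression table with 1 gene symbol. They comprised 15 demethylases, 11 Kmt and Setd methyltransferases, 2 Ezh methyltransferases, 7 arginine methyltransferases, 6 acetyltransferases, 6 deacetylases and 6 sirtuins. Setd1a had 2 rows and was represented by the one with the higher mean. Kat2b and Setd6 had rows that carried a further symbol and were left out, and members of these families without a row, such as Hdac1, Kdm6b and Sirt4, were not analysed here.

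The fasted mice were males aged 8 weeks that had been without food for 24 h, and their controls were males of the same age fed without restriction. No strain, transgene or drug is given in the sources used here. Each exon array was hybridised with muscle RNA pooled from 3 mice, and the experiment was done 4 times with 1 fasted and 1 fed pool each, which gave 4 fasted and 4 fed arrays. Values are log2 levels as the authors deposited them, and a difference is fasted minus fed on that scale, so that a difference of 1 is a 2-fold change.

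Histone acetyltransferases and methyltransferases place acetyl and methyl groups on histone tails, and deacetylases, sirtuins and demethylases remove them. Several of these enzymes take a metabolite as cofactor: sirtuins consume NAD, methyltransferases use S-adenosylmethionine, acetyltransferases use acetyl-CoA, and the JmjC demethylases need 2-oxoglutarate, iron and oxygen. Many also act on proteins other than histones, and in muscle Sirt1 is known as a deacetylase of the coactivator PGC-1alpha and Setd3 as an actin histidine methyltransferase.

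The array medians lay between 5.76 and 5.91, and arrays correlated at 0.957 to 0.980 across the 16755 rows, whose genes are no independent replicates. Markers of 10 cell types were read beside the enzymes, 45 genes in all. None of the 45 passed limma's test at an adjusted p of 0.05, where 0.818% of all rows did. An unadjusted p under 0.05 was found for 6 of them and for 10.9% of all rows. The mean level of 5 myofibre markers lay between 11.44 and 11.84 in fasted and between 11.51 and 11.91 in fed pools. The mean of 6 fibroblast markers was 7.80 to 8.16 in fasted and 7.89 to 8.44 in fed pools. Its members lay on both sides of 0: Lum at a difference of -0.95 ± 0.19 (SE, adjusted p = 0.0899), Col1a1 at -0.39 ± 0.13, Col3a1 at -0.30 ± 0.13 and Dpt at -0.03 ± 0.13, but Pdgfra at 0.29 ± 0.11 and Dcn at 0.14 ± 0.14. The 6 endothelial markers averaged 6.94 to 7.40 in fasted and 7.04 to 7.30 in fed pools, with opposite differences for Kdr (-0.48 ± 0.12, adjusted p = 0.163, lower in 4 of 4 experiments) and Pecam1 (0.34 ± 0.11, adjusted p = 0.292, higher in 4 of 4). The 5 macrophage markers averaged 5.92 to 6.30 in fasted and 5.84 to 6.24 in fed pools, with Cd68 at 0.27 ± 0.10 (adjusted p = 0.391). The 4 satellite cell markers averaged 5.98 to 6.16 in fasted and 5.95 to 6.13 in fed pools, and the median differences of the 10 marker lists lay between -0.17 and 0.10. The part of these cells in the values below was not tested, and in whole muscle fewer cells of a type and less RNA per cell cannot be told apart.

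The question was whether mRNA of these enzymes differed between fasted and fed muscle. None of the 53 genes passed an adjusted p of 0.05 over all rows of the table, in either direction, where 0.818% of all 16755 rows did, 0.531% with a higher and 0.286% with a lower level after fasting. The smallest adjusted p among the 53 was 0.104. Limma's unadjusted p was under 0.05 for 7 of 53 genes, that is, for 13.2% of them and for 10.9% of all rows. Of these genes, 5 had more mRNA after fasting (Ezh1, Kdm3a, Kdm5b, Setd1a and Kat7), against 5.15% of all rows, and 2 had less (Kmt5a and Hdac2), against 5.79% of all rows. The median difference was 0.02 over the 53 genes, against -0.02 over all rows, and differences ran from -0.55 for Kmt5a to 0.53 for Ezh1. Only Ezh1, Kdm3a and Kmt5a differed by 0.5 or more, while 3.34% of all rows did.

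The intervals show how large a difference these arrays leave room for. For all 53 genes the 95% interval of the difference lay within -1 and 1, that is, within a 2-fold change, as it did for 97.5% of all rows. For 40 of the 53 it lay within -0.5 and 0.5, which is a fold of 1.41 either way, and 71.4% of all rows had so narrow an interval. The intervals are those of single genes, unadjusted for the number of genes, and cover the spread between pools, not between single mice. The processing compresses differences of low signals, so for members such as Prmt8 (mean level 4.07) the interval may understate the change in mRNA.

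**Figure D1:**
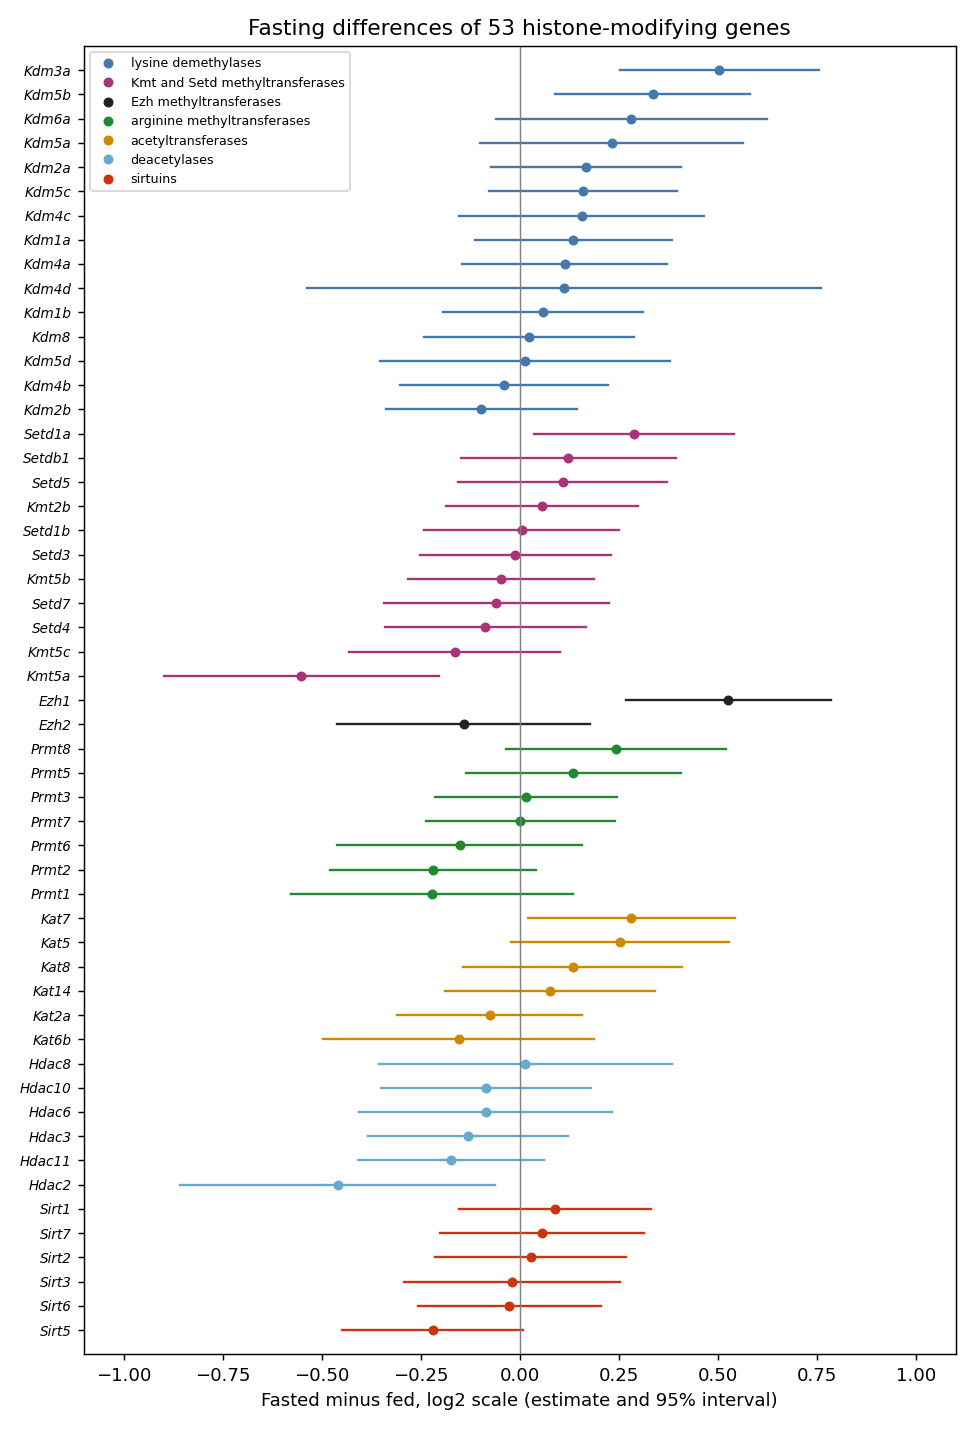
Difference between fasted and fed muscle for each of the 53 genes on the log2 scale (horizontal axis), in blocks by enzyme family; points are limma estimates from 4 paired experiments and bars their 95% intervals. Intervals of 7 genes leave out 0, those of Kdm3a, Kdm5b, Setd1a, Ezh1 and Kat7 above it and those of Kmt5a and Hdac2 below it.

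The promoters of the genes with the largest differences, Ezh1, Kdm3a and Kmt5a, and of Ezh2, the paralog of Ezh1, show what sequence lies before their starts. Each line gives the 250 bases upstream of the most upstream RefSeq start of the gene in build GRCm38.p6, written 5′ to 3′ on the strand of the gene. Capitals mark CCAAT on either strand (ATTGG when it lies on the other strand), the box bound by the factor NF-Y.
Ezh1 (chr11:101226464-101226713, minus strand): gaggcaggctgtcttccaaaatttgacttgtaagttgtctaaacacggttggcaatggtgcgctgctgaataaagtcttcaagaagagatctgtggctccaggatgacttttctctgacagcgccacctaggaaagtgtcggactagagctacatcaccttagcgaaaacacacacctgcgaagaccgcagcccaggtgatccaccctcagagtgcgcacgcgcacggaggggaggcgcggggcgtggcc
Ezh2 (chr6:47595031-47595280, minus strand): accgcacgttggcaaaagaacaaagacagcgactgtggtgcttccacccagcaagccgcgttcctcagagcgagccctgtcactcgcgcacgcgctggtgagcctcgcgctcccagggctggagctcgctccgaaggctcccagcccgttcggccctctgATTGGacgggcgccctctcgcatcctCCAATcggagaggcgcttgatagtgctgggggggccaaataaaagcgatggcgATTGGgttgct
Kdm3a (chr6:71632918-71633167, minus strand): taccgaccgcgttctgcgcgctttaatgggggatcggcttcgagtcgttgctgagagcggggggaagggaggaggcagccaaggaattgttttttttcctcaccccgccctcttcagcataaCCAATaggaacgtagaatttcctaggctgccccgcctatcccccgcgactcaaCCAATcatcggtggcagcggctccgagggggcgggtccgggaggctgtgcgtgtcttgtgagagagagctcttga
Kmt5a (chr5:124439680-124439929, plus strand): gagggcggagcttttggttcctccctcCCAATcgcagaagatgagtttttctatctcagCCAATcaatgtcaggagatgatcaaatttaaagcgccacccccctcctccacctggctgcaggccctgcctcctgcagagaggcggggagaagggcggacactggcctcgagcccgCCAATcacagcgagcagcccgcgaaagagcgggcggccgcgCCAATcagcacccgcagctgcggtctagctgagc
Kmt5a held 4 CCAAT boxes, Ezh2 held 3, Kdm3a held 2 and Ezh1 held 0. The box was looked for after the sequences had been read. It occurred in 33.9% of all 32851 promoter windows of this length, with 3 or more copies in 2.79%, and in 31 of the 62 windows of the 46 members that had one. Motifs of fasting-related factors were also searched on both strands. The glucocorticoid receptor's palindrome (AGAACA, a gap of 3 bases and its reverse complement), AGAACA alone, the FoxO site GTAAACA, the E-box CACGTG, the cyclic AMP response element TGACGTCA and the PPAR element (AGGTCA repeated after a gap of 1 base) were all without a match in the printed windows of Ezh1, Kdm3a and Kmt5a. In all windows their shares were 0.00913%, 16.1%, 3.17%, 6.02%, 1.55% and 0.0335% in that order. Ezh2 held 1 copy of AGAACA, and among the members' windows AGAACA was found in 8, CACGTG in 6 and GTAAACA in 1. These matches describe letters only and do not show binding.

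Ezh1 and Ezh2 are alternative catalytic subunits of Polycomb repressive complex 2, which methylates histone H3 at silenced genes; Ezh2 is known mainly from dividing cells and Ezh1 from differentiated ones such as muscle fibres. Ezh1 (transcript cluster 6791472) was at 7.19, 6.89, 6.80 and 7.13 in the fasted pools of experiments 1 to 4, against 6.44, 6.43, 6.46 and 6.58 in the fed pools. Every fasted pool lay above every fed pool, and the fed pools lay close together. The mean was 7.004 ± 0.19 in fasted and 6.48 ± 0.07 in fed muscle (SD, n = 4 each), a 1.44-fold difference (log2 0.53 ± 0.11 SE, 95% interval 0.27 to 0.78, adjusted p = 0.104). Ezh1 passed in 1 of 10 alternative fits, with experiment as a random block instead of a fixed one, at an adjusted p of 0.0461. Leaving out 1 experiment gave an adjusted p from 0.101 to 0.387.

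Ezh2 (cluster 6953331) stood at 6.08, 5.85, 5.59 and 5.87 in fasted pools and 5.89, 5.91, 6.15 and 6.01 in fed pools. The groups overlapped: the fasted pool was the higher of its pair in experiment 1 and the lower in experiments 2, 3 and 4. Its difference was -0.14 ± 0.14 (95% interval -0.46 to 0.18, adjusted p = 0.842). In each experiment the difference of Ezh1 exceeded that of Ezh2, by 0.56, 0.52, 0.90 and 0.69 (mean 0.67 ± 0.17 SD, n = 4). This contrast was chosen after its values had been seen and was not tested.

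Differences of the lysine demethylases lay mostly above 0. Of 15 members, 13 were above 0 and 2 below, with a median of 0.14, where 45.6% of all rows were above 0. None passed the test. The median of the family was 0.30, 0.15, 0.07 and 0.15 in experiments 1 to 4, against -0.10, -0.04, 0.08 and 0.00 over all rows, so in experiment 3 the family was close to the rows as a whole. Without experiment 1 the median was 0.08, with 13 of the 15 above 0, and without experiment 3 it was 0.20, with 11 above 0. Members were measured on the same arrays and are not independent of each other, so this count has no p-value.

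Kdm3a, which removes methyl groups from lysine 9 of histone H3 and is known as a target of hypoxia signalling, came nearest to the threshold in this family (cluster 6954572). Its level was 6.74, 6.50, 6.48 and 6.63 in fasted pools, against 6.10, 5.87, 6.09 and 6.26 in fed pools. The lowest fasted pool was above the highest fed pool. The mean was 6.59 ± 0.12 in fasted and 6.08 ± 0.16 in fed muscle (SD, n = 4 each), 1.42-fold apart (log2 0.50 ± 0.11 SE, 95% interval 0.25 to 0.75, adjusted p = 0.106). In the 10 alternative fits its adjusted p stayed above 0.05 and came down to 0.0522.

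The Kdm5 enzymes take methyl groups off lysine 4 of histone H3, a mark of active promoters, and all 4 had differences above 0. Kdm5b was at 6.19, 6.18, 6.03 and 6.27 in fasted pools, against 5.83, 5.93, 5.81 and 5.75 in fed pools, without overlap (0.34 ± 0.11 SE, adjusted p = 0.275). Kdm5a read 7.27, 7.0, 6.74 and 6.99 in fasted pools and 6.60, 6.69, 6.79 and 6.998 in fed pools. Its groups overlapped, since experiments 3 and 4 showed almost no difference (0.23 ± 0.14, adjusted p = 0.659). The X-linked Kdm5c was at 0.16 ± 0.10 and the Y-linked Kdm5d at 0.01 ± 0.16.

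Kdm6a, an X-linked demethylase that removes the mark placed by Polycomb repressive complex 2, had levels of 6.27, 6.05, 5.80 and 6.10 in fasted pools, against 5.58, 5.73, 5.98 and 5.80 in fed pools. The fasted pool was the higher one in experiments 1, 2 and 4 and the lower one in experiment 3 (0.28 ± 0.15 SE, adjusted p = 0.571). Kdm2a, a demethylase that binds CpG islands, was at 7.48, 7.30, 7.27 and 7.40 in fasted pools, against 7.17, 7.17, 7.21 and 7.25 in fed pools (0.17 ± 0.10, adjusted p = 0.660). Its groups lay close together but did not overlap. The first lysine demethylase to be described, Kdm1a, was at 0.14 ± 0.11 and its relative Kdm1b at 0.06 ± 0.11. Among the Kdm4 enzymes, differences were 0.11 ± 0.11 for Kdm4a, -0.04 ± 0.11 for Kdm4b, 0.16 ± 0.13 for Kdm4c and 0.11 ± 0.28 for Kdm4d. Kdm2b (-0.10 ± 0.10) and Kdm8 (0.02 ± 0.11) complete the family.

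**Figure D2:**
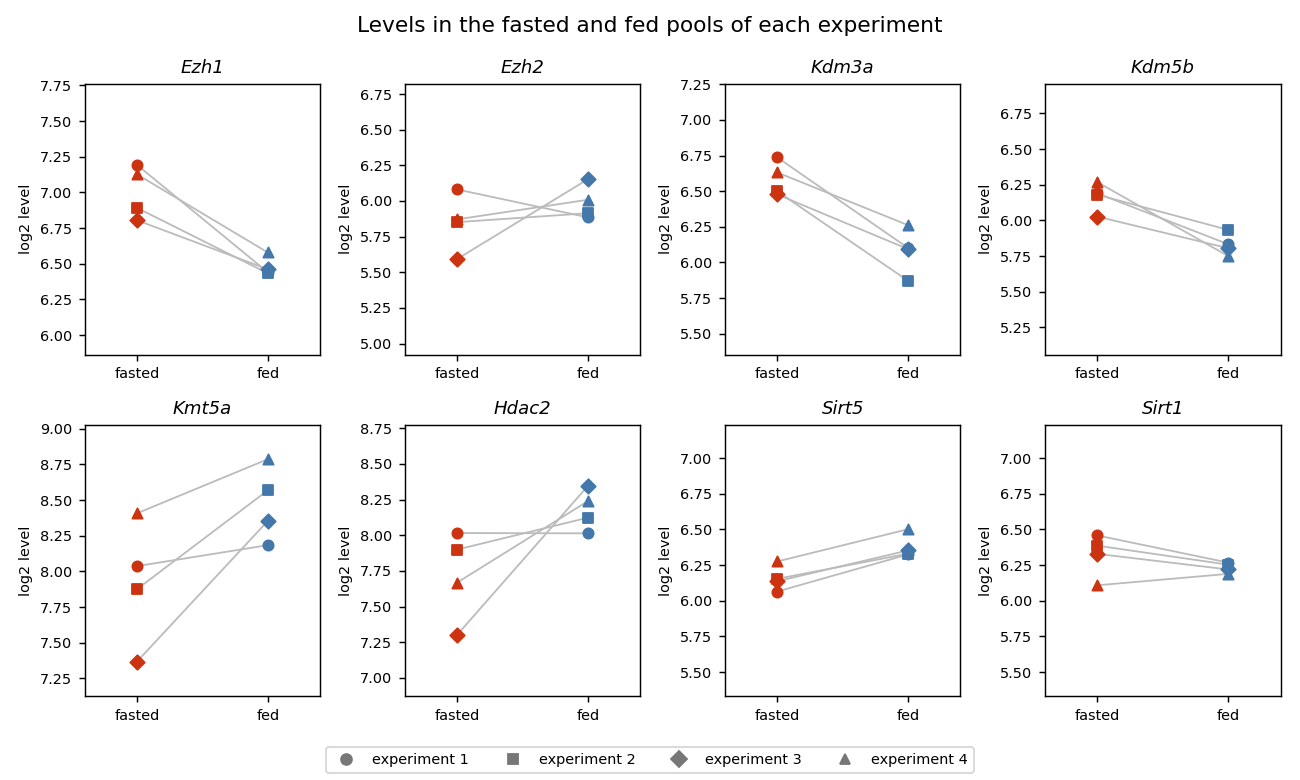
Log2 levels (vertical axes, each spanning the same range) of 8 genes in the fasted pools at the left of each panel and the fed pools at the right; a line joins the pools of an experiment and the marker gives the experiment. Fasted pools of Ezh1, Kdm3a and Kdm5b all lie above the fed pools, those of Sirt5 all lie below, and the other 4 genes overlap.

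Kmt and Setd methyltransferases were divided, with 5 of 11 differences above 0, 6 below and a median of -0.01, which ranged from -0.05 to 0.03 when 1 experiment was left out. The member furthest from 0 was Kmt5a, which places the first methyl group on lysine 20 of histone H4 (cluster 6934308). It was at 8.04, 7.88, 7.37 and 8.41 in fasted pools, against 8.18, 8.57, 8.35 and 8.79 in fed pools. The fasted pool was the lower one in 4 of 4 experiments, but the groups overlapped, and the difference ran from -0.15 in experiment 1 to -0.99 in experiment 3. Means were 7.92 ± 0.43 in fasted and 8.47 ± 0.26 in fed muscle (SD, n = 4 each), with a log2 difference of -0.55 ± 0.15 (SE, 95% interval -0.90 to -0.20, adjusted p = 0.195). Its relatives Kmt5b and Kmt5c, which add further methyl groups at the same residue, were at -0.05 ± 0.10 and -0.16 ± 0.11. Kmt5c was at 5.52, 5.82, 6.04 and 5.86 in fasted pools and 5.96, 5.98, 6.04 and 5.93 in fed pools, lower in the fasted pool of each experiment, although the difference in experiment 3 was only -0.00082.

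Setd1a, a catalytic subunit of the COMPASS complexes that methylate lysine 4 of histone H3, was at 7.18, 7.18, 7.26 and 7.26 in fasted pools, against 7.04, 6.73, 6.87 and 7.09 in fed pools. The groups did not overlap, and the fasted pools lay within a narrow band (0.29 ± 0.11 SE, adjusted p = 0.373). The second row of Setd1a gave 0.13 ± 0.25, with experiment values from -0.79 in experiment 4 to 1.05 in experiment 1. Its paralog Setd1b was at 0.00 ± 0.11 and Kmt2b, of the same class of enzymes, at 0.06 ± 0.11. Setd7, known for single methylation of lysine 4 of histone H3, was at 8.17, 8.13, 7.99 and 8.50 in fasted pools and 7.96, 8.20, 8.35 and 8.50 in fed pools, with overlapping groups (-0.06 ± 0.12, 95% interval -0.34 to 0.22). Setd3 had a difference of -0.01 ± 0.10, Setdb1, a methyltransferase of lysine 9 of histone H3, 0.12 ± 0.12, Setd5 0.11 ± 0.11 and Setd4 -0.09 ± 0.11.

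Arginine methyltransferases had 4 of 7 differences above 0 and a median of 0.00. Leaving out 1 experiment gave 2 to 4 above 0 and medians from -0.04 to 0.03. Prmt1, the main enzyme of asymmetric arginine dimethylation, was at 7.90, 7.68, 7.85 and 8.23 in fasted pools, against 8.08, 8.32, 8.17 and 7.96 in fed pools. The fasted pool was lower in experiments 1 to 3 and higher in experiment 4 (-0.22 ± 0.15 SE, adjusted p = 0.722). Prmt5, which makes symmetric dimethylarginine, was at 7.52, 7.32, 7.23 and 7.39 in fasted pools and 7.10, 7.21, 7.16 and 7.46 in fed pools, with a higher fasted pool in 3 of 4 experiments (0.13 ± 0.12, adjusted p = 0.806). Prmt2 was at 5.65, 5.63, 5.73 and 5.44 in fasted pools and 5.85, 6.06, 5.73 and 5.70 in fed pools, lower in the fasted pool of each experiment (-0.22 ± 0.11, adjusted p = 0.558). Prmt8, a membrane-bound enzyme best known from brain, had low levels of 4.01, 4.17, 4.42 and 4.18 in fasted pools, against 3.92, 4.15, 4.05 and 3.69 in fed pools (0.24 ± 0.12, adjusted p = 0.537). No detection calls were used, so such a low value may be background. Prmt3, Prmt6 and Prmt7 were at 0.02 ± 0.10, -0.15 ± 0.13 and 0.00 ± 0.10.

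Acetyltransferases had 4 of 6 differences above 0, where 45.6% of all rows were above 0, and a median of 0.11. Without experiment 1 the median was 0.01, with 3 of 6 above 0. Kat7, which acetylates histones H3 and H4 at replication origins and genes, was at 6.65, 6.43, 6.41 and 6.55 in fasted pools, against 6.27, 6.25, 6.32 and 6.07 in fed pools. Fasted and fed pools did not overlap (0.28 ± 0.11 SE, adjusted p = 0.408). Kat5, known as Tip60, was at 6.80, 6.87, 6.77 and 7.06 in fasted pools, against 6.26, 6.57, 6.72 and 6.93 in fed pools. Here the fasted pool was the higher of each pair, and the widely spread fed pools overlapped with the fasted ones (0.25 ± 0.12, adjusted p = 0.508). Kat2a, the acetyltransferase GCN5, was at 6.30, 6.20, 6.29 and 6.33 in fasted pools, against 6.36, 6.39, 6.31 and 6.37 in fed pools, a small difference of -0.08 ± 0.10 (95% interval -0.31 to 0.16, adjusted p = 0.911) that had the same sign in each experiment. Kat6b, of the MOZ family, was at 7.12, 6.82, 6.68 and 7.02 in fasted pools, against 6.79, 7.09, 7.20 and 7.18 in fed pools, higher in the fasted pool of experiment 1 and lower in the others (-0.15 ± 0.15). Kat8 and Kat14 were at 0.13 ± 0.12 and 0.08 ± 0.11.

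Among deacetylases 5 of 6 differences lay below 0, as did 9107 of all 16755 rows, and the family median was -0.11. The median was -0.06 without experiment 2, with 6 of 6 below 0, and -0.18 without experiment 3, with 5 of 6 below 0. Hdac2, a class I enzyme of the Sin3, NuRD and CoREST co-repressor complexes, was at 8.02, 7.90, 7.30 and 7.67 in fasted pools, against 8.01, 8.12, 8.35 and 8.24 in fed pools. The pools of experiment 1 differed by only 0.0020, those of experiment 3 were furthest apart, and the groups overlapped through experiment 1. The mean was 7.72 ± 0.31 in fasted and 8.18 ± 0.14 in fed muscle (SD, n = 4 each), and the difference was -0.46 ± 0.17 (SE, 95% interval -0.86 to -0.06, adjusted p = 0.366). Without experiment 3 it was -0.26. Hdac3, the catalytic partner of NCoR and SMRT, was at 6.51, 6.30, 6.44 and 6.74 in fasted pools, against 6.50, 6.63, 6.49 and 6.89 in fed pools, with overlapping groups (-0.13 ± 0.11, 95% interval -0.38 to 0.12). Hdac11, the only class IV deacetylase, was at 5.32, 5.27, 5.37 and 5.15 in fasted pools, against 5.56, 5.51, 5.51 and 5.22 in fed pools. It was lower in the fasted pool of each experiment, yet the low fed pool of experiment 4 made the groups overlap (-0.17 ± 0.10, adjusted p = 0.632). Hdac6, the cytoplasmic tubulin deacetylase, and Hdac10, a polyamine deacetylase, were at -0.09 ± 0.14 and -0.08 ± 0.11, and Hdac8 at 0.01 ± 0.16.

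For comparison, the 4 class IIa deacetylases, which act mainly as signal-dependent co-repressors of MEF2, had differences of -0.74 ± 0.17 for Hdac9 (adjusted p = 0.129), -0.16 ± 0.11 for Hdac4, -0.05 ± 0.11 for Hdac7 and 0.03 ± 0.10 for Hdac5. None passed, and the interval of Hdac9 reached beyond a 2-fold change.

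Sirtuin differences had a median size of 0.04, where the median size over all rows was 0.10, and 3 of 6 lay above 0. Sirt1, a nuclear enzyme much studied in fasting, was at 6.46, 6.39, 6.33 and 6.11 in fasted pools, against 6.27, 6.25, 6.22 and 6.19 in fed pools. The fasted pool was higher in experiments 1 to 3 and lower in experiment 4. The difference of 0.09 ± 0.10 (SE, 95% interval -0.15 to 0.33, adjusted p = 0.890) had an upper bound that corresponds to a 1.26-fold higher level in fasted muscle. Sirt3, the main deacetylase of mitochondria, was at 5.94, 6.06, 6.26 and 6.29 in fasted pools, against 6.14, 6.24, 6.02 and 6.24 in fed pools, with no common direction over experiments (-0.02 ± 0.12, 95% interval -0.29 to 0.25). Sirt5, the mitochondrial desuccinylase, was at 6.06, 6.15, 6.14 and 6.28 in fasted pools, against 6.32, 6.33, 6.35 and 6.50 in fed pools. It was the 1 member whose fasted pools all lay below its fed pools, with differences of -0.26, -0.18, -0.22 and -0.23 in experiments 1 to 4 (-0.22 ± 0.10, 95% interval -0.45 to 0.01, adjusted p = 0.485). The cytoplasmic Sirt2 was at 0.03 ± 0.10, the nuclear Sirt6 at -0.03 ± 0.10 and the nucleolar Sirt7 at 0.06 ± 0.11.

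Read across families, 6 genes had all fasted pools above all fed pools, namely Ezh1, Kdm3a, Kdm5b, Kdm2a, Setd1a and Kat7. They were 11.3% of the 53, where 3.55% of all rows did so. Sirt5, 1.89% of the 53, was the reverse case, against 3.22% of all rows. Most members lay above the median level of the rows (45 of 53). Of 3851 genes between the 25th and 75th percentile of member level, 169 had all fasted pools higher and 164 had them lower. Either way, that was 8.65% of these genes, against 13.2% of the 53. In 4 of 4 experiments, 10.2% of these genes were higher and 11.2% lower. With 3 of the 4 experiments, non-overlap occurs more often, and leaving out each in turn gave 6 to 10 genes with higher and 1 to 6 with lower fasted pools, where 5.67% to 7.53% and 5.80% to 8.84% of all rows did so. Fasted pools were the higher ones in 4 of 4 experiments for 9 genes, against 8.61% of all rows, and the lower ones for 6 genes, against 10.1% of all rows. The choice of genes was made with earlier results of these data known, and no test over the list was made.

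The experiments differed among themselves for many members, and 15 of the 53 had the same sign in all 4. Of these, 9 were higher (17.0% of the 53, against 8.61% of all rows) and 6 lower (11.3%, against 10.1% of all rows). Experiment 3 held the largest gaps of Kmt5a and Hdac2, with differences of -0.99 and -1.04, and differences of -0.59 for Prmt6, -0.56 for Ezh2, -0.53 for Kdm5d, -0.52 for Kat6b and -0.51 for Hdac8. In experiment 1 the same 7 genes were at -0.15, 0.0020, 0.06, 0.20, 0.36, 0.33 and -0.09, in that order. These 7 were picked for differences below -0.5 in experiment 3, so setting them beside experiment 1 is no test. Over all 53 genes the median difference was 0.06 in experiment 1 and 0.01 in experiment 3. Kdm4d was the least steady member, at -0.20, -0.90, 1.06 and 0.49 in experiments 1 to 4. Mean levels of Kdm4d (5.05) and Prmt6 (4.87) were low, at percentiles 23.7 and 19.4 of all rows. Whether their spread is that of low signals was not tested.

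**Figure D3:**
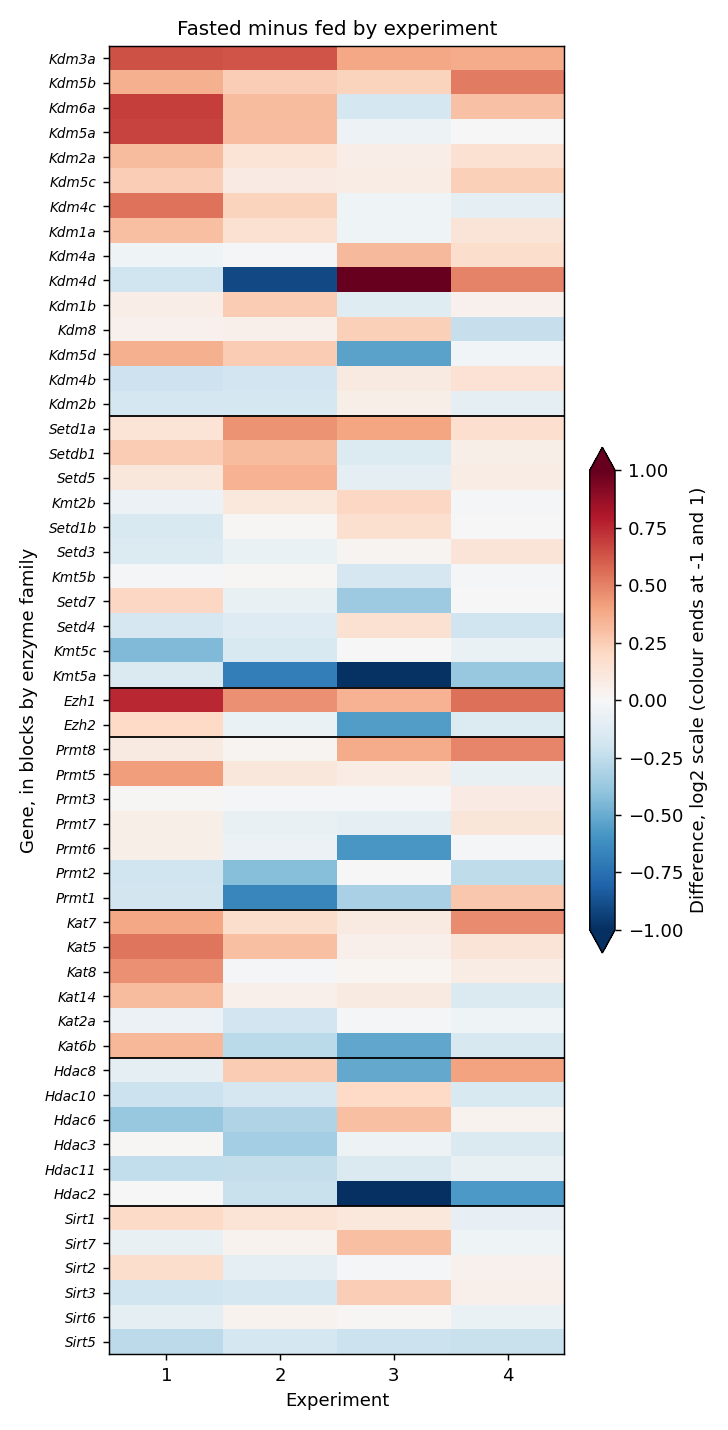
Difference between the fasted and fed pool of each experiment (columns) for the 53 genes (lines of the map, in blocks by enzyme family), on the log2 scale; red is higher and blue is lower in the fasted pool. Ezh1, Kdm3a and Kdm5b are red in all 4 experiments, whereas Kmt5a and Hdac2 are darkest blue in experiment 3.

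The proteins that work with these enzymes, and the genes that supply their cofactors, were read from 12 lists with 154 different measured genes. Over these genes 1 passed the test with a higher level after fasting, the pyruvate dehydrogenase kinase gene Pdk4, where 0.531% of all rows did. None passed with a lower level, where 0.286% of all rows did. Of 9 measured subunits of Polycomb repressive complex 2, none passed. The accessory subunit Jarid2 was at 6.47 ± 0.14 in fasted and 6.97 ± 0.20 in fed muscle (SD, n = 4 each), with no overlap (-0.50 ± 0.14 SE, adjusted p = 0.213), and the other 8 lay between -0.17 and 0.14. Of 8 COMPASS subunits, none passed, and 3 lay above 0 (median -0.01), where 45.6% of all rows did. Dpy30 was at -0.53 ± 0.13 (adjusted p = 0.156) and Rbbp5 at -0.40 ± 0.12 (adjusted p = 0.225), both without overlap. Setd1a, as above, lay on the other side of 0, with Setd1b at 0.00 ± 0.11 and Kmt2b at 0.06 ± 0.11. Over all rows, 3.22% had every fasted pool below every fed pool.

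Co-repressor subunits of deacetylases numbered 23, with 12 above 0 and none past the test; Gatad2b of the NuRD complex was at 0.33 ± 0.13 (adjusted p = 0.373). Of 35 subunits of the SAGA, NuA4 and MOZ acetyltransferase complexes, 23 lay above 0, where 45.6% of all rows did. The smallest adjusted p was that of Ing3, at 0.37 ± 0.13 (adjusted p = 0.313), so none passed. Among 14 further lysine methyltransferases, Nsd3 was at 0.30 ± 0.11 and Suv39h2, a methyltransferase of lysine 9 of histone H3, at -0.26 ± 0.11. Mean levels of Suv39h2 were low, 4.80 in fasted and 5.06 in fed muscle. None of the 14 passed. Nor did any of 11 further JmjC proteins and demethylases, which include Jarid2, or of 10 acetyltransferases or 3 arginine methyltransferases, among them Riox1 at 0.33 ± 0.11, Gtf3c4 at 0.29 ± 0.11 and Carm1 at -0.26 ± 0.11.

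Cofactor supply gave no call either. Of 14 genes of NAD supply and use, 6 lay above 0. Nnmt, which methylates nicotinamide, was at -0.44 ± 0.12 (adjusted p = 0.204) and the nicotinamide riboside kinase Nmrk1 at -0.28 ± 0.11 (adjusted p = 0.386). Mean levels of Nmrk1 were low, 4.20 in fasted and 4.48 in fed muscle, and may be background. Nampt, the rate-limiting enzyme of NAD salvage, was at 0.09 ± 0.20 (adjusted p = 0.957). Of 14 genes of methyl donor and cofactor supply, 9 lay above 0, where 45.6% of all rows did. Ahcy, which clears S-adenosylhomocysteine, was at 6.30 ± 0.44 in fasted and 5.50 ± 0.85 in fed muscle (SD, n = 4 each), a wide spread that left a difference of 0.80 ± 0.39 (SE, adjusted p = 0.537). Among 10 genes known as partners or targets of these enzymes in muscle, Pdk4 rose by 1.91 ± 0.11 (adjusted p = 0.00084). Mef2c was at -0.59 ± 0.13 (adjusted p = 0.115) and the PGC-1alpha gene Ppargc1a at -0.39 ± 0.13 (adjusted p = 0.292). Of the 10 genes, 5 lay above 0 and 5 below.

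**Figure D4:**
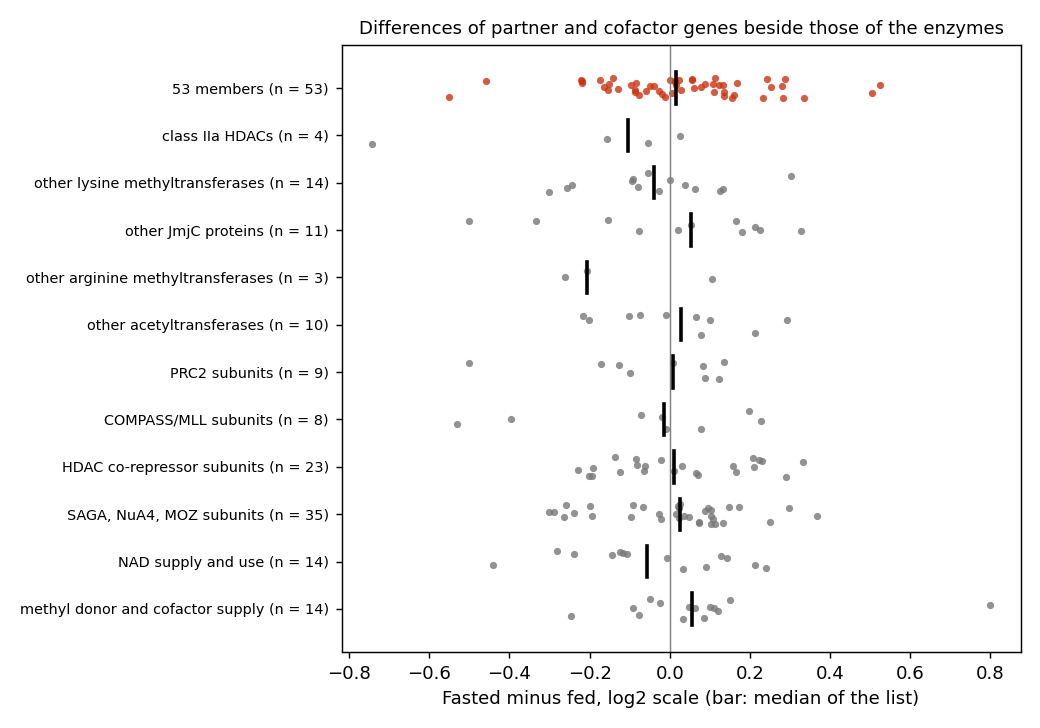
Difference between fasted and fed muscle on the log2 scale (horizontal axis) for the 53 enzymes and for 11 of the 12 lists of related genes; each point is 1 gene and the black bar is the median of its list. The medians of the lists lie between -0.21 and 0.06, and no gene shown passed the adjusted threshold; the list that holds Pdk4 is not drawn.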

How the data were processed

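Total RNA of 4 fasted and 4 fed pools was amplified, labelled with biotin and hybridised to mouse exon arrays, per the labels' protocols. The authors deposited 1 table of 16755 transcript clusters whose values had been made with RMA, per the submitters' processing notes, and the deposited values, 1.08 to 13.3, were read as log2 from their range. Not given in the sources used here are the RMA version, the probes summarised and any filter, and the notes name build hg18, a human one, without a role. RMA compresses differences of low signals, no detection calls or scanner files were used, and the number of arrays limits the precision. GEO's platform annotation, whose symbols may be outdated, paired 14996 clusters with 1 symbol, 1019 with several and 740 with none. All 53 genes matched RefSeq by Entrez number, and promoters are RefSeq's, on GRCm38.p6.

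Fasted minus fed was estimated by limma 3.58.1 (lmFit, then eBayes without trend, under R 4.3.3, experiment as a fixed block, 3 residual and 4.84 prior degrees of freedom) on all 16755 rows. P-values were Benjamini-Hochberg adjusted over all rows, with a threshold of 0.05. Standard errors are moderated ones, with a median of 0.12 over all rows. The labels number 1 fasted and 1 fed pool per experiment. Deviations of the pools of an experiment from the group means correlated at -0.18, 0.05, -0.14 and 0.43 in experiments 1 to 4, so the arrays themselves gave little sign of the pairing, which rests on the labels. Whether the pools of an experiment shared a day or litter is not given in the sources used here, and p-values describe the spread between pools.

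The genes and the lists of related genes and markers were chosen with earlier results of these data known. Values of each array are given for the 8 largest fitted differences in each direction and for members with a known role in muscle or in fasting, and of each related list up to 3 genes of smallest adjusted p are named. Array values of Kdm5a and Kdm2a and the value of Nampt were added after they had been seen. Alternatives were no block, a random block, quantile normalization, median centring, a trended robust prior, a filter on low means, the other row of Setd1a and leaving out each experiment. The CCAAT box and the contrast of Ezh1 with Ezh2 were added after values or sequences had been seen.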

Additional observations from a re-analysis of the deposited data

Results flagged for a closer look

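Among the 106 groups of 4 pools (53 genes, fasted and fed), 8 held a pool whose gap to the nearest of the other 3, as a share of the range of the group, exceeded Dixon's critical value at 95%. That is 7.55% of the groups, and chance marks about 1 in 20. In fasted muscle, Kdm4c stood high in experiment 1 (6.66, where the other 3 pools lay between 6.25 and 6.30), and its difference was 0.03 without that experiment. The fasted pool of experiment 3 was set apart in 3 genes, high for Kdm4b (6.11) and Sirt6 (6.06) and low for Kdm5d (5.68). In fed muscle, the pool of experiment 4 was high for Sirt5 (6.50) and low for Hdac11 (5.22). The fed pool of experiment 2 was low for Setd5 (6.79), and that of experiment 3 was low for Kdm2b (6.15).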

How the results depend on the processing

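No gene of the 53 passed in any fit except Ezh1 with experiment as a random block (consensus correlation 0.061), where the count of higher genes was 1 and its adjusted p 0.0461; leaving out an experiment gave 0 in each direction, with an adjusted p for Ezh1 from 0.101 to 0.387. Without the replicate block, 0 of the 53 passed in either direction, and 117 rows of the table were higher and 68 lower, against 89 and 48 with it. Over all rows, higher calls numbered 143 with the random block, 32 after median centring and 139 after a filter on low means, and lower calls 86, 13 and 87 in the same fits and 86 with a trended robust prior. Leaving out 1 experiment left 11 to 68 higher and 5 to 26 lower rows, from fewer arrays. The cause of the other changes was not tested. Setd3 had a difference of 0.0046 after centring and 0.0035 after quantile normalization. Leaving out an experiment turned the sign of 16 genes, all with a difference within 0.12 of 0: Kat14 (-0.0037 to 0.15), Hdac6 (-0.21 to 0.011), Kdm1b (-0.0044 to 0.12), Sirt7 (-0.026 to 0.099), Setd7 (-0.15 to 0.043), Kdm4d (-0.20 to 0.45), Kdm4b (-0.10 to 0.016), Sirt2 (-0.021 to 0.069), Kdm8 (-0.047 to 0.11), Sirt3 (-0.11 to 0.039), Prmt3 (-0.0054 to 0.028), Setd3 (-0.058 to 0.029), Hdac8 (-0.12 to 0.19), Kdm5d (-0.10 to 0.20), Setd1b (-0.046 to 0.058) and Prmt7 (-0.038 to 0.035). Genes with fasted pools all above fed pools numbered 7, 6, 9 and 10 without experiments 1 to 4, and all below 4, 1, 6 and 6. The family medians that moved by over 1.5 times without experiment 1 were those of demethylases (0.08), acetyltransferases (0.01) and the 2 Ezh genes (0.10). The Ezh median, 0.19 with all experiments, was 0.29 without experiment 3. The median of deacetylases was -0.06 without experiment 2 and -0.18 without experiment 3. Medians of families that lay near 0 also moved by over 1.5 times. The filter on low means removed Prmt6 and Prmt8.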

Other observations

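Kat2b and Setd6, whose rows carried a second symbol, had differences of 0.01 ± 0.12 (SE, adjusted p = 0.991) and -0.17 ± 0.15 (adjusted p = 0.810) in limma's fit. Promoter windows of the members held a median of 16.5 CG dinucleotides and 60.4% G and C, where all windows of the same length had medians of 6 and 52.4%.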
